A study of Mus musculus with 84 samples.

Results

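The sites described here were stretches of open chromatin that mouse fibroblasts showed on day 1 of reprogramming with a control hairpin and that were absent from the peak lists of every later day. A site was a peak of the day 1 list of shLuc cells, and it was counted as closed when no peak of the shLuc lists of days 3, 5 and 7 overlapped it by 1 bp or more. Of the 60953 day 1 sites, 17744 met this rule, 29.1% of them. The sites were thus chosen by the shLuc peak calls themselves, so the number of closed sites and their absence from later shLuc lists are descriptions and were not tested. Each list came from 1 library and gave positions with no height, so the loss of a call and a weaker signal cannot be told apart.

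The study followed reprogramming by RNA sequencing, by ATAC-seq, which cuts open chromatin with a transposase, and by 1 ChIP library for TEAD2. All reprogramming cells were mouse embryonic fibroblasts (MEFs) that received retroviruses for Oct4, Klf4 and Sox2. All were grown in iCD1 medium, with day 0 set when virus was removed. The cells of the RNA and ATAC-seq time course also received a retroviral hairpin vector selected with puromycin. The hairpins were shYthdf2, against the m6A reader Ythdf2, shYthdf3, against the m6A reader Ythdf3, and shLuc, the control hairpin, and each was sampled on days 1, 3, 5 and 7. ATAC-seq gave 12 lists, 1 for each hairpin and day, and RNA gave 24 libraries, 2 for each hairpin and day. The title of the TEAD2 library gives day 1 and names no hairpin. Embryonic stem (ES) cells with shLuc, in N2B27 medium with 2i and LIF, and MEFs with shLuc, in serum medium, had 2 RNA libraries each. The hairpin sequences and the number of hairpins for each gene were not given in the labels, and nothing in them says that replicates were separate cultures, so p-values measure only the spread between these samples.

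Accessible sites mark promoters and the more distant enhancers, where transcription factors keep nucleosomes away. In fibroblasts, AP-1, TEAD and RUNX factors are known to occupy many distant enhancers, and the reprogramming factors are known to draw cells away from the fibroblast programme while pluripotency enhancers open. YTHDF2 and YTHDF3 bind messenger RNAs that carry m6A and promote their decay. TEAD2 is a DNA-binding partner of the Hippo pathway coactivator YAP.

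The closed sites were narrow. Their median width was 185 bp, with quartiles of 143 and 253 bp, against 357 bp for the 26925 sites found on days 3, 5 and 7, called kept sites below. The 10913 sites found on day 3 or 5 but not on day 7 had a median of 242 bp, and the remaining 5371 sites, found on day 7 but missing on day 3 or 5, had 181 bp. The share that closed fell with width: 48.5% of day 1 sites of 115 to 169 bp closed, 37.6% of those of 170 to 249 bp, 22.7% of those of 250 to 390 bp and 7.46% of those of 391 bp or more. Closed sites were therefore 29.1% of day 1 sites but 20.0% of the bases that the day 1 list covers. Few sites lay at the edge of the rule, since 82 closed sites had a later shLuc peak within 50 bp, and 242 sites escaped the rule by an overlap under 50 bp. The median distance of a closed site from the nearest later shLuc peak was 8412 bp.

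Closed sites lay away from gene starts. Of the 17744, 590 or 3.33% were within 1 kb of the start of a protein-coding gene, against 41.6% of kept sites. For 4174 of the 21264 coding genes placed the start was not known, and both gene ends were used instead. Another 15.6% lay 1 to 10 kb away, 49.0% lay 10 to 100 kb away and 32.1% lay further, against 14.0%, 32.8% and 11.6% of kept sites. The median distance was 45.7 kb for closed sites and 5.88 kb for kept sites. Beyond 1 kb of a start, 46.4% of closed sites were inside a gene body and 50.2% were outside any gene, while kept sites had 30.4% and 28.0% there. The side was read only for sites within 100 kb of a start with known strand, 8945 closed and 18333 kept sites. Of these, 58.1% of the closed and 57.5% of the kept sites were downstream, so the side did not separate them.

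**Figure D1:**
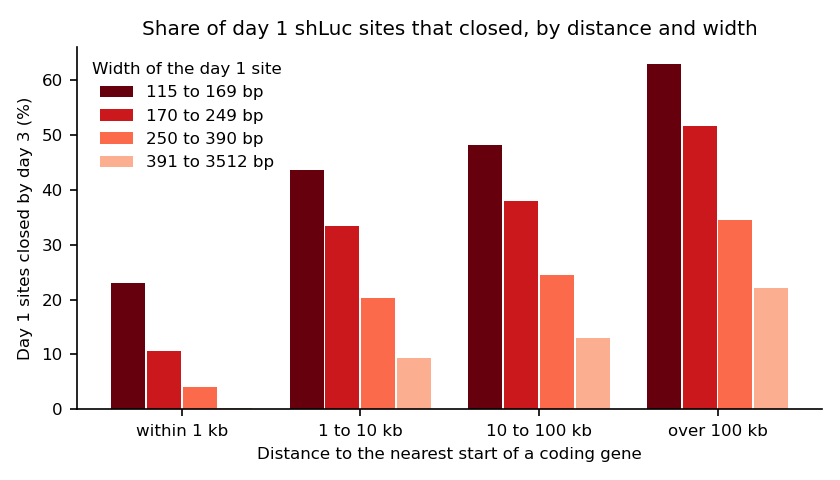
The share of day 1 shLuc sites that closed (vertical axis, percent) is drawn by distance to the nearest start of a coding gene, with 1 bar for each of 4 ranges of site width. Within each distance the narrowest sites closed most often, and within each width range the share rose with distance, to 62.9% for the narrowest sites over 100 kb away and down to 0.273% for the widest sites within 1 kb.

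Distance and width each went with closing when the other was held. Among sites of 115 to 169 bp, 23.1% closed within 1 kb of a start, 43.7% at 1 to 10 kb, 48.2% at 10 to 100 kb and 62.9% beyond. Among sites of 391 bp or more the shares were 0.273%, 9.36%, 13.0% and 22.0% in the same order. By chromosome, the share of day 1 sites that closed ran between 23.3% on chromosome 7 and 35.1% on the X, apart from the Y, where 2 of 4 sites closed. Neighbouring closed sites were 73.3 kb apart at the median, and 12.5% of the gaps were under 10 kb.

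Because a genome sequence of the build was not used here, closed sites could not be read base by base, and the promoter windows of RefSeq (GRCm38.p6, the RefSeq build of mm10) show the bases where closed sites met a gene start. Of 32851 windows of 300 bases, reaching 250 bases before and 50 after a start, 249 lay under a closed site and belonged to 229 genes. The first set below holds the 250 bases before the start of 5 genes with at least 100 of these bases under a closed site. Among such genes called lower at day 7, they had the largest falls in RNA between day 1 and day 7. The set was chosen after these values were seen, is written 5′ to 3′ on the strand of the gene, and capitals mark the bases under the closed site.
Akr1c18, chr13:4150647-4150896, minus strand: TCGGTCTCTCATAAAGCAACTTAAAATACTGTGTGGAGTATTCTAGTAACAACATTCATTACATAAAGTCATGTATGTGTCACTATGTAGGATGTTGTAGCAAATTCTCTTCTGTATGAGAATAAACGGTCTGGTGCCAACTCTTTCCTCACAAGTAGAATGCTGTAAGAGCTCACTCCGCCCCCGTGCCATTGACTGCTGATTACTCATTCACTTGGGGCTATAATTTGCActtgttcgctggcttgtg
Adm, chr7:110627407-110627656, plus strand: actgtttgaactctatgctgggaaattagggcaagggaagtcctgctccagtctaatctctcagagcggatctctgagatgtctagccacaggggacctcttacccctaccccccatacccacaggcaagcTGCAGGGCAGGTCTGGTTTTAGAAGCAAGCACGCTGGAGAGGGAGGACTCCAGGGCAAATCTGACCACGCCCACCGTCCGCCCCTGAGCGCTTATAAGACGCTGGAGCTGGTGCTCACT
Gpr50, chrX:71663417-71663666, plus strand: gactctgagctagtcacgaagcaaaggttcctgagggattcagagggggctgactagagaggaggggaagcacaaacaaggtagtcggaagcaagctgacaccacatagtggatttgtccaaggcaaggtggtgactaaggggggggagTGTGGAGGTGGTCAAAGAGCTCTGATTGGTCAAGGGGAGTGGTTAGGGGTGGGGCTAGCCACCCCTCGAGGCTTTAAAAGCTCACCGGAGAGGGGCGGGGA
Flnc, chr6:29433006-29433255, plus strand: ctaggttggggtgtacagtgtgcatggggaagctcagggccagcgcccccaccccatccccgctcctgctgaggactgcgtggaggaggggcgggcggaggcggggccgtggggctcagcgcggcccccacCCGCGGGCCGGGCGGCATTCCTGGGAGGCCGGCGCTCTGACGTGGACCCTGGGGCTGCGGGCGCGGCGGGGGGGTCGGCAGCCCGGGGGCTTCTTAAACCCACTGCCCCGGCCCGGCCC
Flrt2, chr12:95691976-95692225, plus strand: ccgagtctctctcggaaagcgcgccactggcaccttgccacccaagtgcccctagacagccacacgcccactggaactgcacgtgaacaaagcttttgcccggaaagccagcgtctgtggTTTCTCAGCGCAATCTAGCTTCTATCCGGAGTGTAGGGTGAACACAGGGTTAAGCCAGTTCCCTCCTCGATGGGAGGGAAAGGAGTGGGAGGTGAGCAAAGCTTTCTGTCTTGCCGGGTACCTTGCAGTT

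Akr1c18, which encodes a steroid dehydrogenase that inactivates progesterone, had 101.75 and 105.71 TPM on day 1, 60.79 and 49.15 on day 3, 15.64 and 24.68 on day 5 and 10.91 and 4.05 on day 7. TPM is a measure of relative transcript abundance within a library. All later libraries were below both day 1 libraries, and the day 7 minus day 1 change was -3.76 ± 0.43 on the log2(TPM + 1) scale (SE, limma, adjusted p = 4.7e-05, n = 2 and 2). Its near-identical neighbours in the Akr1c cluster make the assignment of its reads uncertain. The window of Akr1c18 held 232 bases of the closed site at chr13:4150665-4150920, and 3 of its 4 day 1 sites closed.

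Adm, the gene of the vasodilator peptide adrenomedullin, had 32.08 and 55.89 TPM on day 1, 4.64 and 12.35 on day 3, 4.28 and 6.22 on day 5 and 2.61 and 4.56 on day 7. The later libraries did not overlap those of day 1, and the change at day 7 was -3.28 ± 0.54 (SE, limma, adjusted p = 0.0011). The change of Adm at day 3 was -2.32, with an adjusted p of 0.030 in limma that was 0.063, 0.25 or 0.22 without day 1 replicate 1, day 1 replicate 2 or day 3 replicate 1. Flnc, which encodes the actin crosslinker filamin C, had 8.21 and 5.25 TPM on day 7, against 47.32 and 38.99 on day 1, a change of -2.53 ± 0.39 (SE, limma, adjusted p = 6.0e-04). Gpr50, an orphan receptor related to melatonin receptors, changed by -2.84 at day 7, and Flrt2, a cell adhesion and guidance protein, by -2.33, with an adjusted p of 0.0035 that was 0.073 without day 7 replicate 2. In these 5 genes every day 7 library was below every day 1 library. They were picked as the largest called falls, so this says nothing about the other genes with a promoter window under a closed site.

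The promoter windows under closed sites also differed in letters from those under kept sites. The AP-1 motif TGANTCA, searched on both strands, was present in 22.5% of the 249 windows, against 4.23% of the 11470 windows under kept sites and 7.81% of all windows. The TEAD motif GGAATG was in 19.7%, against 10.7% and 14.7%. RUNX (TGTGGTT) was in 6.83%, against 3.02% and 5.27%, C/EBP (TTGCNNAA) in 14.5%, against 6.95% and 10.8%, and SOX (ACAAAG) in 26.1%, against 12.1% and 18.7%. The KLF motif GGGNGTGG was as frequent in both, at 23.7% and 23.6%, while CTCF was in 1.61%, against 6.59% and 3.43%, and the octamer ATGCNAAT in 3.21%, against 2.48% and 3.15%. The NFI motif was in none of the windows under closed sites and in 0.0349% of those under kept sites. The windows under closed sites held a median of 52% G and C and 7 CpG pairs, against 63% and 23 under kept sites, and 52.7% and 7 over all windows, and the part of base composition in these shares was not tested. A match is a run of letters and not a measured binding site.

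The second set shows such letters in place. Ankrd1, a muscle ankyrin repeat gene long used as a readout of YAP and TEAD, is shown as a YAP target with a closed site at its start. It was chosen after its values were seen. The other 3 are the windows with an AP-1 motif under the closed site and the most bases under it. Capitals again mark the closed site.
Ankrd1, chr19:36119845-36120094, minus strand: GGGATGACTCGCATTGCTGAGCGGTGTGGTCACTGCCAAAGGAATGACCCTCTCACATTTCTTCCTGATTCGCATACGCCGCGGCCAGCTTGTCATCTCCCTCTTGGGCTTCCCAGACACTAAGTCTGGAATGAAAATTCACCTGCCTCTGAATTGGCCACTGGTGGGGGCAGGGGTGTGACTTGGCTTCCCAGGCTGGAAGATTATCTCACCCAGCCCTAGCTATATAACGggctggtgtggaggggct
Cpa4, chr6:30568119-30568368, plus strand: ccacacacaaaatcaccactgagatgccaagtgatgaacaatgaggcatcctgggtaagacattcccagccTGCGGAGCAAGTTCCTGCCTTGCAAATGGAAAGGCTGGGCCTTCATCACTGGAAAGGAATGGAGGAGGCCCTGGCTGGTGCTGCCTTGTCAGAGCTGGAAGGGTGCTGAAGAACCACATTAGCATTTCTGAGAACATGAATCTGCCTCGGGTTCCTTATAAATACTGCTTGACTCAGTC
Csrnp1, chr9:119983024-119983273, minus strand: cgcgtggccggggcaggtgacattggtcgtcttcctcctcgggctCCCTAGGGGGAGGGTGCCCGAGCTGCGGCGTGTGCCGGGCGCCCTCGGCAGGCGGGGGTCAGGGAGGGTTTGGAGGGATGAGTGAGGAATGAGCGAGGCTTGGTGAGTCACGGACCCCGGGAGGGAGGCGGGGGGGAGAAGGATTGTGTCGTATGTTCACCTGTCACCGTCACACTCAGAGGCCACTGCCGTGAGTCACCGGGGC
Lpin3, chr2:160880420-160880669, plus strand: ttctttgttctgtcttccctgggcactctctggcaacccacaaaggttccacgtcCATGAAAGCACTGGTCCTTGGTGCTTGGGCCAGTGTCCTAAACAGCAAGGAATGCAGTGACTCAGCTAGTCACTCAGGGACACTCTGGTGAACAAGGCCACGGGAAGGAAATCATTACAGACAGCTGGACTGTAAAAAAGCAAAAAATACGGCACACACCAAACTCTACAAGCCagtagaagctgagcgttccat

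In Ankrd1, TEAD motifs stood 210 to 205 and 123 to 118 bases before the start, both under the closed site at chr19:36119863-36120142. In Csrnp1, a nuclear protein gene, AP-1 motifs stood 102 to 96 and 14 to 8 bases before the start with a TEAD motif at 120 to 115. Cpa4, a carboxypeptidase, had AP-1 at 10 to 4, and Lpin3, a phosphatidate phosphatase, had AP-1 at 138 to 132 and TEAD at 147 to 142. None of these 4 genes was called in shLuc cells in the main fit, which does not pair replicates. The day 7 minus day 1 change was -1.97 ± 0.72 for Ankrd1 (SE, limma, adjusted p = 0.14), -1.09 for Csrnp1, -0.01 for Cpa4 and 1.57 for Lpin3. Ankrd1 had 16.64 and 2.57 TPM in the day 1 libraries, against 1.22 and 0.86 on day 7. Cpa4 was at 0 to 0.6 TPM in all shLuc libraries of the time course, so its change is a value near the floor.

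The knockdown lists give an independent view of the same sites, since the rule did not use them. On day 1, 72.6% of the closed sites were found in the shYthdf2 list (95% Wilson interval 72.0 to 73.3%, which covers counting error only) and 68.9% in the shYthdf3 list, while kept sites were found at 97.3% and 97.7%. For all day 1 sites these shares were 87.2% and 86.6%. Both knockdown lists of day 1 held 10375 closed sites (58.5%), 1 of them held 4358, and neither held 3011 (17.0%). Against this, both lists held 95.8% of kept sites. The closed sites in neither list were the narrowest, with a median of 149 bp against 211 bp for those in both. Width moved with this result, since the shYthdf2 day 1 list held 59.9% of closed sites of 115 to 169 bp and 94.6% of those of 391 bp or more.

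On later days the knockdown cells lacked most of the sites too. The shYthdf2 lists held 17.0% of the closed sites on day 3 (16.4 to 17.5%), 16.9% on day 5 and 17.9% on day 7, while kept sites stood at 91.4%, 95.3% and 98.6%. The shYthdf3 lists held 11.5%, 7.36% and 7.17% of the closed sites on these days, against 92.1%, 88.9% and 92.9% of kept sites. Over all day 1 sites the shares in the shYthdf2 lists were 59.0%, 62.6% and 67.1%, and in the shYthdf3 lists 57.2%, 51.9% and 54.9%. The sites that shLuc cells lost later were intermediate, at 49.6%, 54.6% and 60.3% in shYthdf2 and 48.6%, 37.1% and 36.9% in shYthdf3. The lists differ in length, with 50021, 55577 and 75558 peaks in shYthdf2 on days 3, 5 and 7, 47147, 43725 and 52389 in shYthdf3 and 45613, 59861 and 51694 in shLuc, so the shares follow how much was called in each library as well. With 1 list for each hairpin and day, no replicate check of a difference between hairpins was possible.

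**Figure D2:**
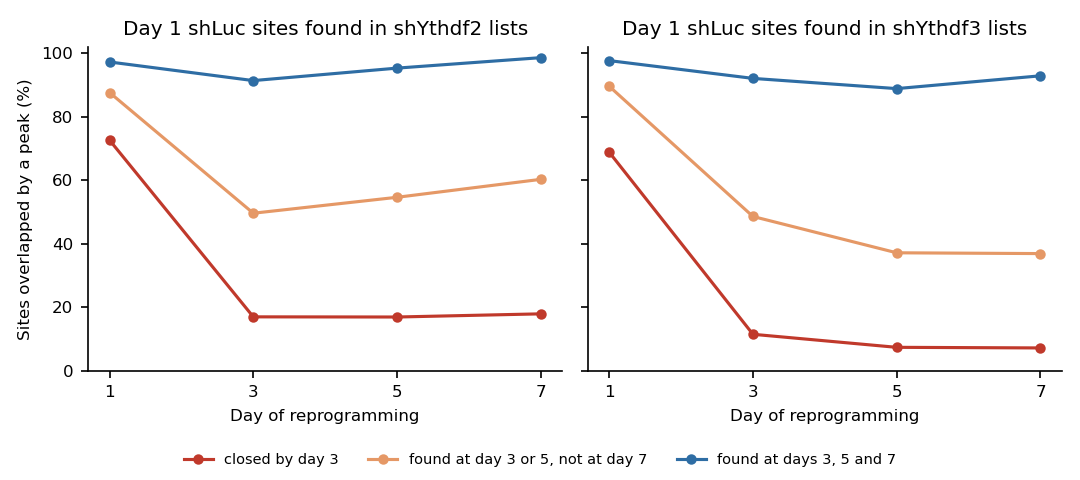
The share of day 1 shLuc sites overlapped by a peak of the same day in shYthdf2 lists (left) and shYthdf3 lists (right) is drawn against the day of reprogramming for 3 classes of site. Closed sites stood at 17.9% and 7.17% on day 7, against 72.6% and 68.9% on day 1, while kept sites stayed above 88% in every list.

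The same rule can be applied to each hairpin over the 49144 sites that all 3 day 1 lists share. Of these, 7719 (15.7%) were absent from the 3 later lists in shYthdf2 cells, 11325 (23.0%) in shYthdf3 cells and 10375 (21.1%) in shLuc cells. The order was the same when a later peak had to cover 50% of the site, at 20.7%, 29.3% and 26.0%, and for sites at least as wide as the median, at 10.6%, 15.8% and 13.0%. Of the 10375 sites closed in shLuc cells, shYthdf2 cells showed 800 (7.71%) on all of days 3, 5 and 7 and shYthdf3 cells 210 (2.02%), and 90 sites were in both sets, 11.2% of the first and 42.9% of the second. In all, 5172 sites (49.9%) were absent from every later list of all 3 hairpins.

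These subsets had median widths within 10 bp of each other. The 800 sites that shYthdf2 cells kept had a median of 222 bp, the 210 that shYthdf3 cells kept 218 bp, and the 5172 absent everywhere 212 bp. Their median distances from a gene start were 47.1, 27.6 and 53.6 kb. A day 1 TEAD2 peak overlapped 7.62% of the 800, 3.33% of the 210 and 2.34% of the 5172. These differences were not tested.

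TEAD2 peaks were less frequent at closed than at kept sites. The 7805 TEAD2 peaks of day 1 overlapped 2.91% of closed sites and 19.7% of kept sites, beside 10.9% of all day 1 sites. Of the sites found on day 3 or 5 but not on day 7 they overlapped 5.86%. Width moved with this result: at 115 to 169 bp the shares were 2.24% of closed and 3.72% of kept sites, at 170 to 249 bp 3.00% and 8.07%, at 250 to 390 bp 3.83% and 15.8%, and at 391 bp or more 4.06% and 30.8%. The share among closed sites changed little with distance from a start, at 3.90% within 1 kb, 2.89% at 1 to 10 kb, 3.10% at 10 to 100 kb and 2.53% beyond. Kept sites had 28.9%, 12.8%, 13.4% and 12.8% there. The TEAD2 list came from 1 library, so this has no replicate check. The title of that library names no hairpin, while the sites are those of shLuc cells.

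To ask what the RNA of nearby genes did, each site was assigned to the nearest start of a protein-coding gene within 100 kb, which placed 12043 closed sites (67.9%) on 6948 genes. Of these genes 5861 passed the filter on low values (1 TPM or more in at least 2 libraries), and the counts below are over these genes, not over all genes near closed sites. The largest number was 15 closed sites at Trabd2b, a gene of a Wnt-inactivating protease, out of 27 day 1 sites. Lpp, a focal adhesion protein, had 12 of 19, Syne1, a nuclear envelope spectrin repeat protein, 11 of 19, Fbn2, the microfibril protein fibrillin, 11 of 16, and Cdh2, N-cadherin, 11 of 20. In each of these 5 genes other day 1 sites did not meet the rule, with 8 kept sites at Trabd2b and 3 at Lpp.

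**Figure D3:**
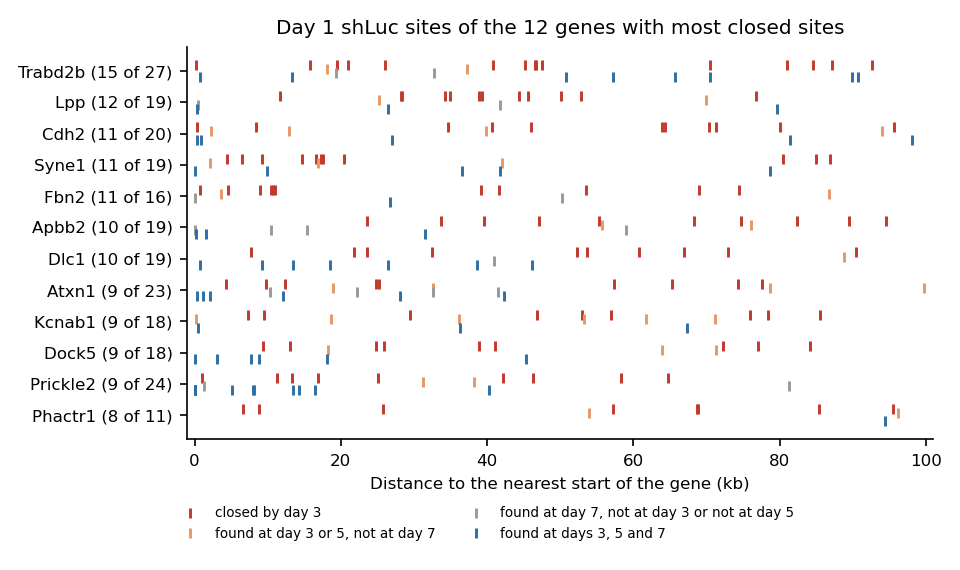
Each tick is a day 1 shLuc site of the 12 genes with most closed sites, and the colour gives the class of the site. Ticks are placed by distance in kb from the nearest start of the gene. For genes with no known start, such as Cdh2 and Fbn2, the distance is from the nearer gene end. Closed sites stood at all distances up to 100 kb and were mixed with kept sites, as for Trabd2b, where 15 of 27 closed.

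At day 3 the RNA of genes near closed sites had moved in both directions. In shLuc cells 87 of the 5861 genes were lower on day 3 than on day 1 (1.48%) and 101 were higher (1.72%), while over all 21303 genes tested 0.699% were lower and 1.87% higher. Over the 15079 coding genes placed these shares were 0.962% and 2.47%. With the replicate number as a block the counts were 203 lower and 225 higher, beside 1.61% and 3.47% of all genes. The counts rest on single libraries: the total of 188 was 72 without day 1 replicate 1, 75 without day 1 replicate 2 and 70 without day 3 replicate 2. The 87 lower genes became 17, 25 and 21 in these runs, beside 68, 56 and 42 over all genes, so the lower calls at day 3 depend on each of these 3 libraries. With median-ratio scaling 117 were lower and 99 higher, beside 200 lower and 369 higher of all 21104 genes tested under that scaling. The comparisons of day 3 and day 7 share the day 1 libraries.

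At day 7 more genes near closed sites were lower than higher. There were 424 genes lower on day 7 (7.23%) and 220 higher (3.75%), while 2.9% of all genes tested were lower and 3.92% higher, and 4.01% and 5.11% of the coding genes. The share that fell climbed with the number of closed sites, at 4.46% of genes with 1, 7.05% with 2, 12.9% with 3 or 4 and 27.2% with 5 or more, which is 63 of 232 genes. Only 1 of these 232 genes was higher. The median change was -0.74 in them and -0.08 in all genes near closed sites, beside 0.01 over all genes tested. The -0.74 lay between -0.98 and -0.48 when 1 library was left out, while the -0.08 was -0.29 without day 7 replicate 1, 0 without day 1 replicate 1 and 0.07 without day 7 replicate 2, where the median of all genes was 0.15. With the block there were 672 lower and 361 higher, beside 4.97% and 6.06% of all genes, and 81 lower among the 232. When 1 shLuc library of day 1 or day 7 was left out, the total of 644 and the 63 were smaller in every case. The calls over all genes tested were fewer in each of these runs too, so the drop was not particular to genes near closed sites.

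Genes with day 1 sites of which none closed behaved differently. Of 7488 such genes, 2.10% were lower on day 7 and 5.97% higher, and their median change was 0.15. Genes with 5 or more day 1 sites and none closed are the closest match for number, and 16 of 438 (3.65%) were lower and 11.4% higher. Their median level on day 1 was 19.4 TPM with a median of 5 sites, while the genes with 5 or more closed sites had 17.4 TPM and 11 sites. The difference between these sets was not tested, and in bulk RNA fewer cells of a type and less RNA per cell cannot be told apart.

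**Figure D4:**
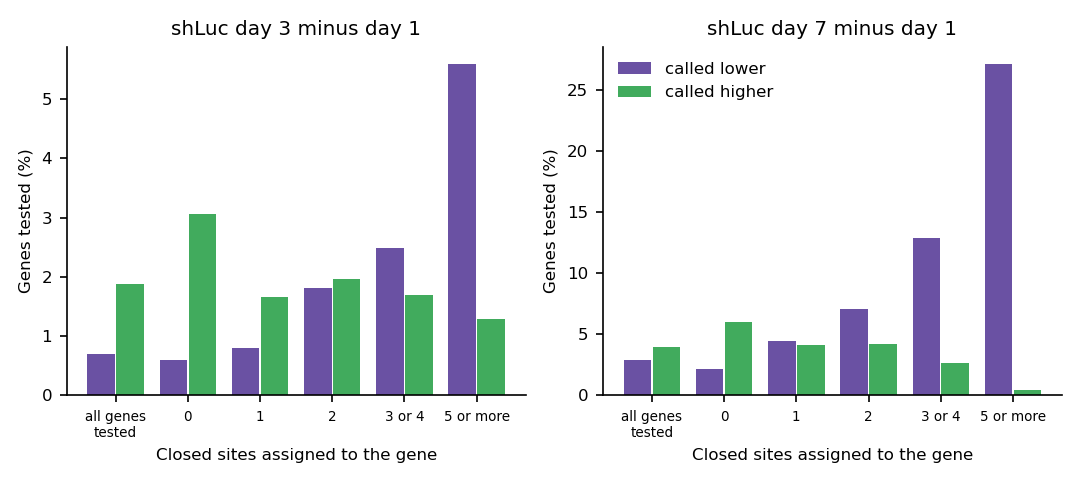
Bars give the percent of genes tested that limma called lower (purple) or higher (green) at an adjusted p under 0.05, by the number of closed sites assigned to the gene, for day 3 minus day 1 (left) and day 7 minus day 1 (right) in shLuc cells. At day 7 the share called lower was 2.10% with no closed site and 27.2% with 5 or more.

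The largest fall at day 3 among the named genes was that of Tagln. Tagln, the actin-binding protein transgelin, had 389.14 and 304.64 TPM on day 1, 18.42 and 7.77 on day 3, 11.27 and 3.86 on day 5 and 7.14 and 3.59 on day 7. The change was -4.73 ± 0.51 at day 3 (SE, limma, adjusted p = 3.6e-05) and -5.82 ± 0.51 at day 7. No later library of Tagln overlapped those of day 1. It had 1 closed site of 3, at chr9:45935859-45936014 (mm10), 156 bp inside the gene body.

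Fbln5, which encodes the elastic fibre protein fibulin, had 175.97 and 176.08 TPM on day 1, 12.12 and 19.79 on day 3, 7.14 and 6.81 on day 5 and 3.46 and 3.82 on day 7. It changed by -3.42 ± 0.40 at day 3 (SE, limma, adjusted p = 8.2e-05). Its closed site at chr12:101793536-101793666 was 131 bp wide and lay in the gene body 24.9 kb from the start. Igfbp7, a secreted insulin-like growth factor binding protein, had 20.92 and 24.62 TPM on day 3, against 224.71 and 207.38 on day 1, a change of -3.19 ± 0.40 (SE, limma, adjusted p = 1.8e-04). Tpm1, tropomyosin, with 3 of 7 sites closed, had 234.64 and 256.79 TPM on day 3, against 637.78 and 554.04 on day 1, a change of -1.27 ± 0.17 (SE, limma, adjusted p = 2.6e-04). Areg, the epidermal growth factor family ligand amphiregulin, had 0.76 and 0.97 TPM on day 3, against 18.17 and 21.97 on day 1 (change -3.49 ± 0.59, limma, adjusted p = 0.0029), and its closed sites at chr5:91194584-91194949 and chr5:91200001-91200243 lay 55.2 and 60.5 kb downstream of the start. In each of these genes the day 3 libraries were below both day 1 libraries.

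Closed sites also stood near genes whose RNA rose, and the 8 largest rises at day 3 among genes near closed sites included Tgtp1, Irgm2, Ifit1, Rtp4 and Uba7, each known to be induced by interferon. Tgtp1, an interferon-inducible GTPase with a near-identical copy that makes its read assignment uncertain, had 3.22 and 0.76 TPM on day 1, 602.44 and 585.64 on day 3, 819.97 and 648.46 on day 5 and 272.34 and 206.45 on day 7 (day 3 change 7.77 ± 0.61, limma, adjusted p = 1.2e-06). Both of its day 1 sites closed, and both lay upstream of the start, at chr11:48998258-48998511 and chr11:49006811-49006988. Rtp4, a receptor transporter protein induced by interferon, had all 4 of its sites closed, and its RNA stood at 108.65 and 194.72 TPM on day 3, against 2.48 and 4.79 on day 1 (change 5.03 ± 0.54, limma, adjusted p = 3.2e-05). Irgm2, an immunity-related GTPase, changed by 5.77 and Ifit1, an interferon-induced RNA-binding protein with similar neighbouring copies that make its reads uncertain too, by 5.45. Uba7, the activating enzyme of an interferon-induced ubiquitin-like modifier, changed by 4.34, Trh, which encodes thyrotropin-releasing hormone, by 5.75, Ccdc190 by 4.68 and Spock2, a matrix proteoglycan, by 4.48.

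**Figure D5:**
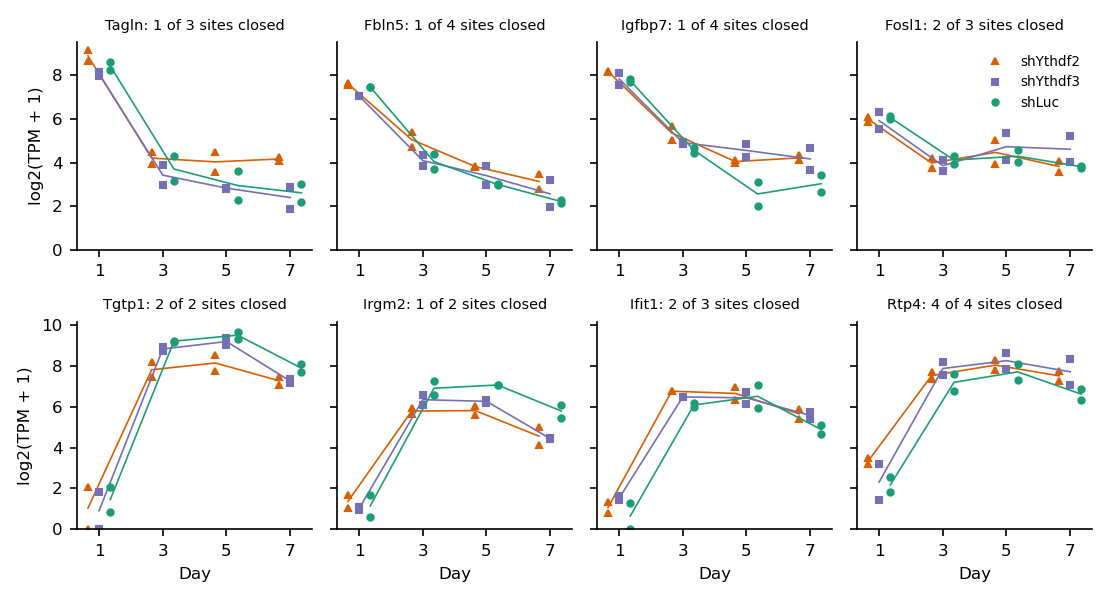
RNA levels on the log2(TPM + 1) scale are drawn by day for 4 genes near closed sites that fell (top) and 4 that rose (bottom), with 1 point for each library, a line through the mean of 2 libraries, and shYthdf2, shYthdf3 and shLuc side by side. In shLuc cells Tagln was at 7.14 and 3.59 TPM on day 7, against 389.14 and 304.64 TPM on day 1, and Tgtp1 at 602.44 and 585.64 TPM on day 3, against 3.22 and 0.76 TPM on day 1.

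By gene group, closed sites were frequent around fibroblast surface, matrix and neural genes. At 30 collagen and matrix genes 69 of 178 day 1 sites closed (38.8%), and 24 of the genes had at least 1. At 15 fibroblast surface genes 44 of 110 closed, at 26 mesenchymal transcription factors 47 of 163 (28.8%), at 26 YAP-TEAD targets and TEAD genes 52 of 210 (24.8%) and at 18 contractile genes 17 of 85 (20.0%). At 11 neural markers 13 of 37 closed (35.1%), at 16 inflammatory genes 18 of 65 (27.7%) and at 11 endothelial markers 11 of 41 (26.8%). At 23 pluripotency genes 10 of 55 closed (18.2%) and at 24 epithelial genes 9 of 49 (18.4%). Over all coding genes the share was 25.0%, so the YAP-TEAD group stood at the general level and the contractile, pluripotency and epithelial groups below it. The lists were compiled with results of these data known and describe the groups, without a test of them.

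Among matrix genes with a closed site, 18 of 24 were lower on day 7 than on day 1 and none was higher, with a median change of -2.01, beside 2.9% lower over all genes. Of the 6 without one, 1 was lower. Col5a1 and Col5a2, the chains of type V collagen, had 7 of 14 and 5 of 9 sites closed. Col5a2 had 221.53 and 182.43 TPM on day 1, 80.72 and 96.3 on day 3, 60.95 and 51.73 on day 5 and 64.09 and 49.44 on day 7, a change of -1.82 ± 0.33 at day 7 (SE, limma, adjusted p = 0.0028). The change of Col5a1 was -1.98 ± 0.35 (SE, limma, adjusted p = 0.0019). The summed TPM of the 30 genes was 7636 to 7941 in the day 1 libraries and 2579 to 3055 in those of day 7.

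Contractile genes fell whether or not a site near them closed, with 8 of 9 lower among those with a closed site and 6 of 9 among those without. Cald1, the actin regulator caldesmon, with 6 of 13 sites closed, had 114.13 and 78.67 TPM on day 7, against 327.4 and 317.19 on day 1 (change -1.75 ± 0.24, limma, adjusted p = 2.2e-04). Of the mesenchymal transcription factors 4 of 20 with a closed site were lower, and 1 of 5 without. Twist1, a helix-loop-helix factor of mesenchyme, with 4 of 8 sites closed, had 77.02 and 57.4 TPM on day 7, against 255.05 and 216.38 on day 1 (change -1.81 ± 0.23, limma, adjusted p = 1.3e-04). In both genes the day 7 libraries were below both day 1 libraries.

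Of the YAP-TEAD group, 6 of 19 genes with a closed site were lower and 1 higher at day 7, and 2 of 7 without one were lower. Fibroblast surface genes gave 5 of 11 and 0 of 3. Itgb1, the beta subunit of fibronectin and collagen receptors, with 4 of 9 sites closed, had 198.23 and 107.31 TPM on day 7, against 656.82 and 599.2 on day 1 (change -2.10 ± 0.29, limma, adjusted p = 2.8e-04). Cd44, a hyaluronan receptor with 8 of 14 sites closed, changed by -1.50 (limma, adjusted p = 0.017), which was 0.082, 0.099 and 0.20 without day 1 replicate 1, day 1 replicate 2 and day 7 replicate 2. Inflammatory genes gave 4 of 10 lower with a closed site and 0 of 6 without.

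Among TGF-beta response genes, 2 of 10 with a closed site were lower at day 7 and 1 of 5 without. Inhba, the activin subunit, with 4 of 5 sites closed, had 35.12 and 26.62 TPM on day 1, 5.39 and 4.48 on day 3, 2.21 and 2.52 on day 5 and 1.89 and 0.51 on day 7 (day 7 change -3.92 ± 0.58, limma, adjusted p = 4.6e-04). No later library of Inhba reached the lower day 1 value. Of the AP-1 subunits with a closed site 1 of 6 was lower: Fosl1, which encodes Fra-1, had 12.61 and 13.48 TPM on day 7, against 63.04 and 68.82 on day 1 (change -2.25 ± 0.47, limma, adjusted p = 0.0077, and 0.061, 0.051 and 0.050 without day 1 replicate 2, day 7 replicate 1 and day 7 replicate 2).

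Pluripotency and epithelial genes that changed by day 7 were higher, with or without a closed site. Of the 16 pluripotency genes without a closed site 11 were higher at day 7, and 1 of 6 with one: Esrrb, an orphan nuclear receptor of naive pluripotency with 2 of 3 sites closed, had 3.17 and 5.83 TPM on day 7, against 0.36 and 0.25 on day 1 (change 2.03, limma, adjusted p = 0.016). The p of Esrrb was 0.075, 0.098 and 0.15 without day 1 replicate 1, day 1 replicate 2 and day 7 replicate 2. Epithelial genes gave 11 of 17 higher without a closed site and 2 of 6 with one, and the difference between these shares was not tested.

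The summed TPM of markers of other cell types also differed between the days, except for endothelial markers, where the libraries overlapped. Few single markers were called. At day 7, 0 of 11 macrophage and 0 of 6 skeletal muscle markers tested were called. Of 8 endothelial markers tested 1 was lower, and of 11 neural markers 1 was lower and 2 were higher. Over all genes tested 2.9% were lower and 3.92% higher. The summed TPM of 11 macrophage markers was 26.4 to 50.6 on day 7, against 51.8 to 96.4 on day 1, with Adgre1, Spi1 and Tyrobp at 0 in both day 7 libraries. For 11 neural markers it was 181 to 192 on day 7, against 498 to 568 on day 1, beside 2.4 to 5.35 in MEFs. Stmn2, a neuronal microtubule regulator, had the highest level among them on day 1, with 29.88 and 46.55 TPM on day 7, against 289.79 and 262.75 on day 1. For 11 endothelial markers the sum was 33.4 to 36.3, against 36.3 to 44.0, and for 11 skeletal muscle markers 11.9 to 20.0, against 25.2 to 26.4. Their part in the changes above was not tested.

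Genes near closed sites were lower in ES cells than in MEFs more often than higher. Of the 5188 genes near closed sites tested there, 2352 (45.3%) were lower in ES cells than in MEFs with shLuc and 1504 (29.0%) higher, while 32.9% of all genes tested were lower and 30.0% higher, and 37.7% and 33.6% of coding genes. With 5 or more closed sites 139 of 197 genes (70.6%) were lower in ES cells, beside 43.3% of genes with 5 or more day 1 sites and none closed (175 of 404) and 35.7% of all genes with day 1 sites of which none closed. Col5a2 had 0.46 and 0.37 TPM in ES cells, against 108.97 and 106.79 in MEFs. Fbln5 had 0.27 and 0.47 TPM in ES cells, against 85.9 and 82.6 in MEFs, a change of -5.96 ± 0.13 (SE, limma, adjusted p = 2.2e-12). The libraries of ES cells and MEFs did not overlap in either gene.

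Rtp4 was listed at 0 in both ES libraries and had 3.02 and 6.3 TPM in MEFs, all below its 108.65 and 194.72 TPM on day 3. Irgm2 had 0.47 and 0.36 TPM in ES cells, against 0.87 and 0.95 in MEFs, beside 93.68 and 151.56 TPM on day 3. Esrrb had 212.72 and 245.74 TPM in ES cells and was listed at 0 in both MEF libraries.

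On every day both libraries of a knockdown had less of the targeted RNA than both shLuc libraries. Ythdf2 had between 7.84 and 25.11 TPM in shYthdf2 cells over the 4 days, against 34.3 to 69.55 in shLuc cells, and Ythdf3 had 5.21 to 20.64 TPM in shYthdf3 cells, against 19.04 to 41.1 in shLuc cells. The comparison of a knockdown with shLuc took the mean of days 3, 5 and 7, and both knockdowns share the shLuc libraries, which also enter the day 3 and day 7 comparisons above. A gene with a low value in a shLuc library of day 3 or 7 therefore counts toward a fall over time and toward a higher value in both knockdowns.

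Genes near closed sites were called higher in the knockdowns more often than lower. With shYthdf2, 177 of 5861 were higher (3.02%) and 56 lower (0.955%), while 1.63% of all genes and 2.24% of coding genes were higher and 1.05% of all genes lower. With shYthdf3, 312 were higher (5.32%) and 121 lower (2.06%), while 3.56% of all genes and 4.33% of coding genes were higher and 1.98% of all genes lower. Genes with day 1 sites of which none closed gave 1.94% higher with shYthdf2 and 3.65% with shYthdf3. Genes with 5 or more closed sites gave 4.31% and 9.91%, while those with 5 or more day 1 sites and none closed gave 5.48% and 5.71%.

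With the replicate block the counts were 361 higher and 171 lower for shYthdf2, beside 3.35% and 2.84% of all genes, and 606 and 260 for shYthdf3, beside 6.8% and 4.3%. The shYthdf2 total of 233 dropped to 150 or 143 when either shLuc library of day 5 was left out and to 129 when replicate 2 of shLuc day 7 was left out. It was 128, 111 and 147 when replicate 2 of shYthdf2 days 3, 5 and 7 was left out in turn. The shYthdf3 total of 433 was 278, 284 and 272 when replicate 2 of shLuc days 3, 5 and 7 was left out in turn.

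Set against each other, the hairpins differed at 195 of the 5861 genes with more RNA with shYthdf2 than with shYthdf3 (3.33%) and at 241 with less (4.11%), beside 2.42% and 3.45% of all genes. Over the coding genes placed the shares were 3.28% and 4.04%, close to those near closed sites. With the block the counts were 387 and 505, beside 4.5% and 7.05% of all genes.

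The 453 genes tested near the 800 sites kept in shYthdf2 cells had 20 higher with shYthdf2 (4.42%) and 21 with shYthdf3 (4.64%). The 151 near the 210 sites kept in shYthdf3 cells had 5 higher with shYthdf3 (3.31%) and 9 with shYthdf2 (5.96%). Higher with shYthdf2 and shYthdf3 were 3.02% and 5.32% of all genes near closed sites, and 1.63% and 3.56% of all genes tested. The shares were thus not particular to the hairpin that kept the sites. Tpm1 had 1 site kept in shYthdf2 cells, at chr9:67104696-67104850, 55.6 kb upstream of its start. Tpm1 RNA changed by 0.23 ± 0.10 with shYthdf2 (SE, limma without the replicate block, adjusted p = 0.29). Lpp had the site at chr16:24443341-24443599, found on days 3, 5 and 7 in both knockdowns. Lpp RNA changed by -0.01 with shYthdf2 and 0.91 ± 0.27 with shYthdf3 (SE, limma without the replicate block, adjusted p = 0.061).

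Igfbp7, which fell over time in shLuc cells, was higher with both hairpins. On days 3, 5 and 7 it had 31.95 and 50.31, 14.69 and 16.41, and 19.16 and 16.14 TPM with shYthdf2. It had 30.15 and 28.27, 28.2 and 17.96, and 24.81 and 11.51 TPM with shYthdf3, against 20.92 and 24.62, 7.73 and 2.98, and 5.27 and 9.66 TPM with shLuc. Each knockdown library was above both shLuc libraries of its day. The difference from shLuc was 1.16 ± 0.23 with shYthdf2 (SE, limma, adjusted p = 0.014, and 0.051 without shYthdf2 day 3 replicate 2) and 1.16 ± 0.23 with shYthdf3 (adjusted p = 0.0079).

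Spp1, the matrix phosphoprotein osteopontin, was lower with both hairpins. On days 3, 5 and 7 it had 69.59 and 41.88, 24.89 and 38.47, and 32.57 and 25.49 TPM with shYthdf2, 108.04 and 108.87, 62.28 and 68.45, and 38.69 and 44.73 TPM with shYthdf3, and 164.19 and 167.49, 100.16 and 226.7, and 97.5 and 109.01 TPM with shLuc. All knockdown libraries were below the shLuc libraries of their day. The differences from shLuc were -1.88 ± 0.19 with shYthdf2 (SE, limma, adjusted p = 7.1e-05) and -1.03 ± 0.19 with shYthdf3 (adjusted p = 0.0038). It had 3 of 4 sites closed, 1 of them at chr5:104435005-104435120, 49 bp before the start.

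Dio3, the deiodinase that inactivates thyroid hormone, was lower with both hairpins, by -2.33 ± 0.33 with shYthdf2 (SE, limma, adjusted p = 0.0015) and -1.92 ± 0.33 with shYthdf3 (adjusted p = 0.0027, and 0.051 with a pseudocount of 0.1). On day 5 Dio3 had 5.53 and 4.2 TPM with shYthdf2, 2.28 and 11.34 with shYthdf3 and 45.09 and 32.93 with shLuc. Elmod1, a GTPase-activating protein of Arf-family proteins, with 3 of 5 sites closed and 1 of them kept in shYthdf2 cells, was higher with shYthdf2 by 2.05 ± 0.35 (SE, limma, adjusted p = 0.0048). On day 3 Elmod1 had 14.48 and 29.32 TPM with shYthdf2, 5.76 and 15.75 with shYthdf3 and 3.62 and 3.35 with shLuc.

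Further named genes near closed sites differed strongly from shLuc with a single hairpin. Egln3, a prolyl hydroxylase of hypoxia-inducible factors, had 4.58 and 2.65 TPM on day 7 with shYthdf3, against 52.53 and 61.38 with shLuc (mean change over 3 days -2.22 ± 0.25, limma, adjusted p = 1.2e-04). Nefm, a neurofilament subunit, had 115.64 and 128.97 TPM on day 7 with shYthdf3, against 12.2 and 4.71 with shLuc (mean change 2.83 ± 0.47, limma, adjusted p = 0.0022). Dynlt3, a dynein light chain, had 19.61 and 13.06 TPM on day 7 with shYthdf2, against 38.22 and 24.96 with shLuc (mean change -1.50 ± 0.21, limma, adjusted p = 0.0014). The libraries of knockdown and shLuc did not overlap at day 7 in these genes.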

How the data were processed

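Accessibility was taken from 12 deposited ATAC-seq peak lists and TEAD2 binding from 1 deposited ChIP-seq list, in which the authors gave chromosome, start and end and no score. RNA was taken from a deposited table of TPM per gene. The submitters' processing notes name mm10 as the build and, among the tools, MACS2, RSEM, Bowtie2, deepTools and SAMtools, with no version or setting. The deposited lists and TPM values carry no read totals, so depth is unknown. Spike-in values were not used here, because the names of their 24 columns matched no sample.

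Sites were compared by overlap of 1 bp or more. Wilson intervals at 95% cover counting error over sites only. Gene positions and promoter windows came from RefSeq tables of GRCm38.p6, with 21264 protein-coding genes placed by name, 17090 with a known start. For the other 4174 both gene ends were used. The restriction to coding genes was chosen after seeing the data, and because no genome was used, promoter windows replaced the planned reading of site sequences. Motifs (9) were searched on both strands.

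Values were log2(TPM + 1), for genes at 1 TPM or more in at least 2 libraries. With limma 3.58.1 (R 4.3.3), group means were estimated under a trended prior for the time course (24 libraries, 12 groups, 21303 genes) and separately for the cell lines (18 libraries, 9 groups, 17985 genes), and two-sided p-values were adjusted over all genes of a fit by Benjamini-Hochberg, with calls under 0.05. The fit was also run on simulated data with independent libraries. These lack the pairing described next, so that run says nothing about its effect. Deviations from the group mean correlated between same-numbered libraries in all 66 pairs of time-course groups (0.276 to 0.497). The numbers were therefore read as pairing in the time course. Counts with the replicate number as a block are given over all genes tested and over all genes near closed sites. They are also given for genes with 5 or more closed sites lower at day 7. Time-course counts of the other gene sets, of the coding genes placed and of the gene lists are from the fit without the block. Adjusted p-values, errors and calls of single genes are from the fit without the block, which ignores this pairing. In the cell lines the 36 correlations were -0.126 to 0.074, and the number was read as a name. Named genes were the 12 with most closed sites, the 8 largest falls and rises at day 3, up to 3 members of each of 14 gene lists, and the 4 largest falls and rises for each knockdown, 81 genes in all. Largest falls and rises were taken among called genes whose libraries did not overlap and with at least 5 TPM in the higher group. The members, gene lists and rules were chosen with earlier results of these data known.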

Additional observations from a re-analysis of the deposited data

Results flagged for a closer look

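For 17 of the 81 named genes near closed sites, the difference between the hairpins, shYthdf2 minus shYthdf3 over the mean of days 3, 5 and 7, passed an adjusted p of 0.05 in limma, which 2.42% of all 21303 genes did with a higher value in shYthdf2 and 3.45% with a lower one. With the replicate block these shares were 4.5% and 7.05%. The named genes include the largest falls and rises for each knockdown, taken from the same libraries, so their number says nothing about an excess. The differences are log2 changes, and a positive value means more RNA with shYthdf2.

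Higher with shYthdf2 were the cytoskeletal and adhesion genes Tagln (1.25), Myh9 (1.14), a non-muscle myosin, Cd44 (1.06) and Krt19 (1.92), a keratin. Inhba (1.93), Egln3 (1.88), Kdr (1.87), a VEGF receptor, Nkain4 (1.53) and Pstpip1 (1.52), an actin-associated adaptor, were higher as well.

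Lower with shYthdf2 were the neuropeptide genes Sst (-3.13) and Pmch (-2.77), the neurofilament gene Nefm (-2.49), Akr1c21 (-3.74), Cxcl12 (-1.86), a chemokine, Dynlt3 (-1.63), Ccdc190 (-1.12) and Spp1 (-0.85). Akr1c21 was at 0 to 0.84 TPM in shYthdf2 libraries of days 3, 5 and 7 and at 6.08 to 25.15 TPM in shYthdf3 libraries, and it belongs to a cluster of near-identical genes. Spp1 was lower than in shLuc with both hairpins, so its difference is one of size. The causes were not tested.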

How the results depend on the processing

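The number of closed sites was 17744 and lay between 16452 and 26609 with 50% coverage, a 500 bp margin or other sets of later lists, and was 4623 among sites at least as wide as the median. With 50% of the site covered, a peak within 500 bp, and wide sites, the shares found were 68.7, 75.9 and 89.0% in shYthdf2 on day 1, 13.3, 21.0 and 21.2% on day 3, 13.7, 21.1 and 21.0% on day 5 and 14.4, 23.0 and 19.8% on day 7. In shYthdf3 they were 64.1, 72.3 and 87.0%, 9.19, 15.2 and 13.5%, and 5.65, 10.6 and 8.54% on days 1, 3 and 5, and 5.46 and 10.9% for the first and second settings on day 7. TEAD2 overlap was 2.38 and 3.67% for these first settings. Within 500 bp or 2.5 kb of a start were 1.70 and 6.51% of closed sites. Closing over shared day 1 sites was 20.7, 29.3 and 26.0% for shYthdf2, shYthdf3 and shLuc with 50% coverage and 10.6, 15.8 and 13.0% for wide sites, a choice made after seeing the data.

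The replicate block gave 428 calls at day 3, 1033 at day 7, 532 with shYthdf2 and 866 with shYthdf3, against 188, 644, 233 and 433 without it, and 387 higher and 505 lower between the hairpins, against 195 and 241. It did not move the counts between ES cells and MEFs or among genes with 5 or more closed sites by more than 1.5 times. With starts within 10 kb the counts were 91, 311, 119 and 213, but over 2500 genes tested, against 5861 in the main setting. Of the 311 at day 7, 222 were lower and 89 higher. Between ES cells and MEFs the count was 1674 of 2226 genes, against 3856 of 5188. Leaving out 1 library gave 70 to 149 at day 3, 278 to 411 at day 7, 111 to 221 with shYthdf2, 272 to 447 with shYthdf3 and 3526 to 3604 between ES cells and MEFs, and 24 to 48 of the genes with 5 or more closed sites. Counting only closed sites in all 3 day 1 lists left 14 of 52 such genes lower. Median-ratio scaling moved the median change over all genes by 0.10 between ES cells and MEFs and by less in the other comparisons, while leaving out a library moved the day 7 median to 0.15 and the day 3 median to 0.14 at most. Over 90 genes named or shown by their promoter, 1306 repeats kept the call, 181 lost it and 0 turned the direction. The causes were not tested. Depth is unknown, so a site absent from a list may lie below its calling threshold.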
